A study of Mus musculus with 16 samples.

Results

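The genes described here are 42 mouse genes of the nucleolus and of ribosome assembly, chosen from a list of gene names and found on the array through the transcript accession of each probe. All 42 of the 42 listed genes had a probe, among 20284 genes with a probe matched to 1 symbol. Ribosomes are assembled in the nucleolus, where RNA polymerase I transcribes the ribosomal RNA precursor, small nucleolar ribonucleoproteins (snoRNPs) guide its chemical modification, and assembly factors fold and cut it into the precursors of the small and the large subunit. These genes are known to be transcribed together in growing cells, and the transcription factor MYC is a known activator of many of them. In blood formation, high output of ribosomes is a known feature of dividing progenitors, and it declines as granulocytes mature.

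The study measured total RNA on single-colour microarrays in 8 groups of 2 arrays each, an experiment 1 and an experiment 2 that the series describes as independent. The first 4 groups were progenitors sorted from bone marrow: monocyte-dendritic cell progenitors (MDPs) of wild-type (WT) mice, MDPs of mice lacking IRF8 (Irf8KO), and common monocyte progenitors (cMoPs), which descend from MDPs, of WT and of Irf8KO mice. IRF8 is a transcription factor needed for monocyte and dendritic cell development. The other 4 groups were 32Dcl.3 cells, a mouse myeloid progenitor cell line, grown with conditioned medium of WEHI3B cells and infected with pairs of retroviral vectors 3 days before collection. All 4 carried an MSCV vector with a CD8 marker and an MSCV vector with puromycin resistance. In the empty-vector control neither held a cDNA, in the C/EBPalpha group the puromycin vector held C/EBPalpha, in the IRF8 group the CD8 vector held IRF8, and in the last group both did. C/EBPalpha is a transcription factor known to drive granulocyte differentiation and to arrest the cell cycle. The 32Dcl.3 groups are therefore a single cell line with factors expressed from a viral promoter. The labels give no age, no sex and no number of animals for the progenitors and do not say whether animals were pooled.

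Each value below is a log2 level relative to the array's 75th percentile of signal, and a change is a difference of such levels between group means, with its standard error from limma over the 8 arrays of the progenitors or of 32Dcl.3. A change is called when its adjusted p is under 0.05 over all genes tested, which were 11964 in progenitors and 13339 in 32Dcl.3. Levels are compared only within a slide: MDPs, cMoPs and 32Dcl.3 cells lay on 3 different slides, so cell type and slide cannot be told apart. The 75th percentile of processed signal was 67.8 to 81 on the MDP arrays and 455.6 to 567.9 on the cMoP arrays. In 32Dcl.3 it differed by group, with 445.2 to 460.1 for empty vectors, 367.0 to 368.6 with IRF8, 214.6 to 218.1 with C/EBPalpha and 147.3 to 153.8 with both. Each 32Dcl.3 change below is thus relative to arrays of unlike overall signal, and the part of that in the result was not tested beyond the scalings given below. Arrays of a group correlated at 0.9951 to 0.998. The Irf8 probe was well above background on all progenitor arrays and its level was lower in Irf8KO than in WT, by 0.55 ± 0.037 in MDPs and 1.48 ± 0.037 in cMoPs on the log2 scale; whether it lies in the deleted part was not examined. In 32Dcl.3 the Irf8 and Cebpa probes were not well above background on any array, so they do not check the transduction. All 42 ribosome assembly genes were well above background on all 8 arrays of each system. In these bulk samples, fewer cells of a type and less RNA per cell cannot be told apart.

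Since the data concern genes that moved together, their promoters were read first, from RefSeq (GRCm38.p6, 250 bases before to 50 after the start of transcription). The table held 41 windows for 37 of the 42 genes. On both strands 4 motifs were searched, namely the E box CACGTG that MYC family proteins bind, a C/EBP-like site TTNNGCAA, an IRF-ETS composite site (a GGAA core followed after any 2 bases by GAAA) and the CCAAT box CCAAT. The E box was in 6 of 41 windows (14.6%), against 2349 of 32851 windows of all genes (7.15%). Member windows also had a higher GC content, with a median of 58.3% against 52.7%. Among windows of 55% to 63% GC the E box was in 14.3% of the members' and in 9.26% of all. The C/EBP-like site was in 3 of 41 windows (7.32%, against 10.8% of all), in Nolc1, Ppan and Rrp1b. The IRF-ETS site was in 0 of 41 (2.72% of all), and the CCAAT box in 10 of 41 (24.4%, against 37.4%). No motif overlapped another in the sequences shown. The stretches around the 6 E boxes are given 5′ to 3′ on the strand of the gene, with the E box in capitals, because this is the motif that was more frequent in the members than in all windows.
Nop2, chr6:125131811-125131840, plus strand, E box starting at -60 from the start: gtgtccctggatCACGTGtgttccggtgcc
Pes1, chr11:3963965-3963994, plus strand, E box at 2: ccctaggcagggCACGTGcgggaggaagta
Wdr43, chr17:71616220-71616249, plus strand, E box at 17: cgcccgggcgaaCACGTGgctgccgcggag
Tsr1, chr11:74898092-74898121, plus strand, E box at 24: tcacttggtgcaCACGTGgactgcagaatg
Utp20, chr10:88826765-88826789, minus strand, E box at 37: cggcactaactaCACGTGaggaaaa
Mybbp1a, chr11:72441355-72441376, plus strand, E box at 40: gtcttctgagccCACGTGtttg
The last 100 bases before the start of Nop56, one of the genes with the largest fall below, hold no E box and a CCAAT box on the opposite strand, shown in capitals.
Nop56, chr2:130274312-130274411, plus strand: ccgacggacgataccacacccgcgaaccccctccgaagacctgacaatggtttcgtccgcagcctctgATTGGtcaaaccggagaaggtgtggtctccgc
The windows of Ncl and Polr1b held none of the 4 motifs. These matches are letters only and say nothing of binding in these cells.

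In 32Dcl.3 cells with C/EBPalpha, 41 of the 42 genes fell and none rose, against 47.2% of all genes tested that fell and 31.6% that rose. The median change of the 42 was -1.59, a 3.01-fold lower level, while that of all genes was -0.14. At least 2-fold lower were 38 of the 42, against 12.4% of all genes, and at least 4-fold lower were 6, against 1.05%. Both C/EBPalpha arrays lay below both empty-vector arrays for the same 41 of 42 (52.1% of all genes). With both factors 41 of 42 fell and 1, Noc3l, rose (46.8% and 38.0% of all genes), with a median of -2.09, or 4.25-fold lower, and both arrays lay below both empty-vector arrays for 41 (49.6% of all genes). At least 4-fold lower were then 25 genes, against 5.47% of all. With IRF8 alone 35 of 42 fell and 0 rose (25.4% and 22.7% of all genes), by small amounts, with a median of -0.25. These 3 comparisons share the empty-vector arrays. By array, the median of the 42 differences from the empty-vector mean was -1.57 and -1.61 with C/EBPalpha, -0.26 and -0.23 with IRF8, and -2.12 and -2.09 with both.

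**Figure D1:**
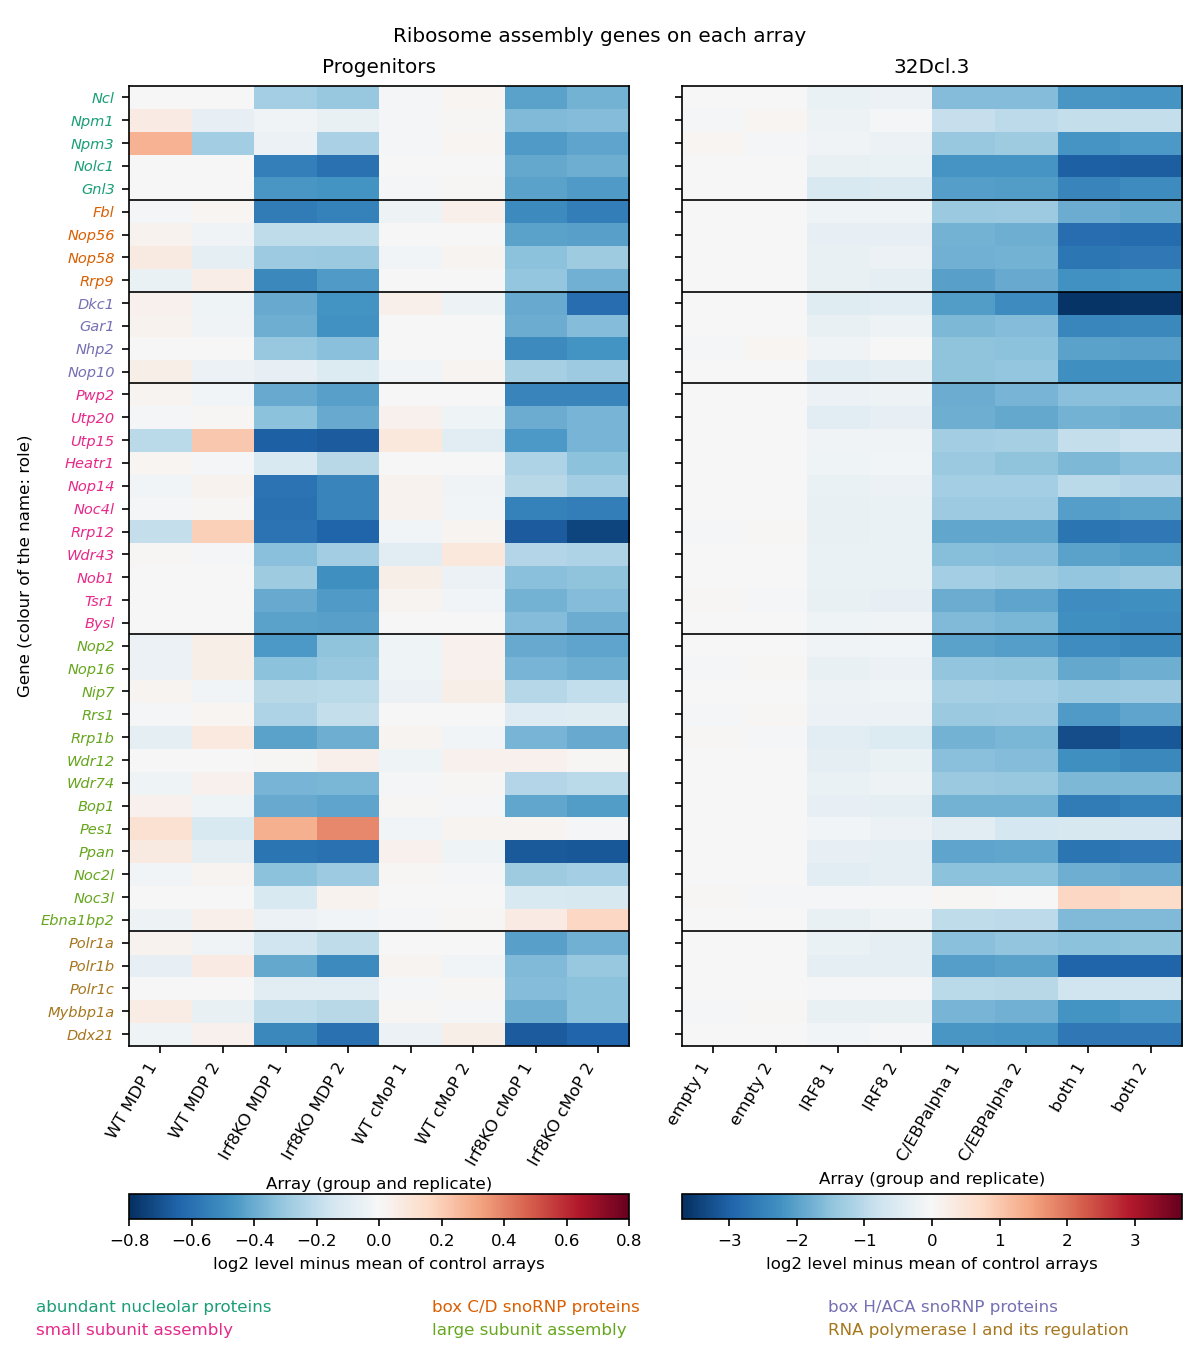
Log2 level of each of the 42 genes on each array minus the mean of its control arrays (WT of the same cell type, or empty vectors), genes in rows by role and arrays in columns, with a colour scale per system. Medians by array ran from -0.33 to -0.38 on the 4 Irf8KO arrays and from -1.57 to -1.61 with C/EBPalpha, and Noc3l is the row that is higher with both factors.

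The size of the fall depended on how arrays were scaled. Scaling arrays to their median instead of the 75th percentile moved the median of all genes to -0.45 with C/EBPalpha and to -0.75 with both factors. The median of the 42 minus that of all genes was -1.45 with C/EBPalpha and -1.99 with both, and under 5 other scalings it ran from -1.61 to -1.31 and from -2.11 to -1.73. All 41 falls with C/EBPalpha were called in the same direction under each of these 5, as were 41 of the 42 calls with both factors.

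Among the abundant nucleolar proteins, nucleolin (Ncl), an RNA-binding protein of ribosomal RNA transcription and processing, had log2 levels of 7.55 and 7.53 with empty vectors, 7.29 and 7.31 with IRF8, 5.93 and 5.93 with C/EBPalpha and 5.38 and 5.35 with both. No 2 of these 4 groups overlapped, and the order empty, IRF8, C/EBPalpha, both was that of most members. Its change was -1.61 ± 0.026 with C/EBPalpha (3.06-fold lower, adjusted p = 1.34e-13) and -2.17 ± 0.026 with both (4.51-fold lower, adjusted p = 4.99e-15). Nucleophosmin (Npm1), a chaperone of the granular nucleolus, had levels of 8.38 and 8.5 with empty vectors, 8.26 and 8.39 with IRF8, 7.58 and 7.46 with C/EBPalpha and 7.56 and 7.55 with both. Here the C/EBPalpha arrays overlapped those with both factors, and the IRF8 arrays overlapped the empty-vector ones. The fall with C/EBPalpha, -0.92 ± 0.052 or 1.89-fold, was smaller than for most members, and with both factors it was -0.88 ± 0.052. The largest fall of this role was that of Nolc1, a chaperone of snoRNPs, from 5.5 and 5.48 to 3.3 and 3.3 with C/EBPalpha and 2.45 and 2.45 with both, or -2.18 ± 0.029 and -3.03 ± 0.029. Npm3, a nucleophosmin relative, changed by -1.35 and -2.16, and Gnl3 (nucleostemin, a nucleolar GTPase) by -2.05 and -2.39.

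The 4 proteins of the box C/D snoRNPs, which guide methylation of ribosomal RNA, all fell with each factor. Fibrillarin (Fbl), their methyltransferase, had levels of 5.41 and 5.45 with empty vectors, 5.28 and 5.27 with IRF8, 4.06 and 4.09 with C/EBPalpha and 3.6 and 3.54 with both, with no overlap between groups. Its change was -1.35 ± 0.031 with C/EBPalpha (adjusted p = 2e-12) and -1.86 ± 0.031 with both. Nop56, a core scaffold protein, went from 6.56 and 6.61 with empty vectors to 6.29 and 6.29 with IRF8, 4.84 and 4.79 with C/EBPalpha and 3.77 and 3.74 with both. Again the 4 groups did not overlap, and the fall grew from 3.41-fold with C/EBPalpha (-1.77 ± 0.03) to 7.09-fold with both (-2.83 ± 0.03, adjusted p = 2.3e-15). Its partner Nop58 changed by -1.76 ± 0.03 and -2.66 ± 0.03. Rrp9, a protein of the U3 snoRNP, had the largest fall of the role with C/EBPalpha, -1.94 ± 0.049, and reached -2.22 ± 0.049 with both.

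The box H/ACA snoRNPs convert uridine to pseudouridine in ribosomal RNA, and their 4 proteins all fell with C/EBPalpha and with both. Dyskerin (Dkc1), the pseudouridine synthase, had the largest fall of all 42 genes with both. With C/EBPalpha its fall was within its standard error of those of Nolc1 (-2.18) and Ddx21 (-2.17). The levels of Dkc1 were 2.6 and 2.59 with empty vectors, 2.15 and 2.17 with IRF8, 0.54 and 0.27 with C/EBPalpha and -1.03 and -1.01 with both. The change was -2.19 ± 0.072 with C/EBPalpha (4.56-fold lower, adjusted p = 4.29e-11) and -3.61 ± 0.072 with both (12.2-fold lower, adjusted p = 2.32e-13). The groups did not overlap, although the 2 C/EBPalpha arrays lay further apart than those of most members. The partner proteins Gar1, Nhp2 and Nop10 changed by -1.63, -1.5 and -1.45 with C/EBPalpha, and by -2.4, -2.0 and -2.27 with both.

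All 11 small subunit assembly genes fell with C/EBPalpha, with changes from -1.92 to -1.26, and all 11 fell with both, from -2.67 to -0.84. Heatr1, a large scaffold of the small subunit processome, had levels of 5.37 and 5.37 with empty vectors, 5.22 and 5.28 with IRF8, 4.01 and 3.89 with C/EBPalpha and 3.72 and 3.81 with both. None of the groups overlapped, and its changes were -1.42 ± 0.044 with C/EBPalpha and -1.61 ± 0.044 with both. Bysl, a later assembly factor of the small subunit, had levels of 4.57 and 4.6, 4.42 and 4.44, 2.93 and 2.89 and 2.32 and 2.24 in the same order of groups, and changed by -1.67 ± 0.034 and -2.3 ± 0.034. The largest fall of the role was that of Rrp12, a factor of nuclear export of preribosomes, at -1.92 ± 0.057 with C/EBPalpha and -2.67 ± 0.057 with both (6.34-fold). Pwp2, Utp15, Utp20 and Nop14, also of the processome, differed from this pattern in that their level with both factors was not below that with C/EBPalpha (below). Of the others, Noc4l changed by -1.34 and -2.01, Wdr43 by -1.6 and -2.02, Tsr1 by -1.9 and -2.29, and Nob1, the nuclease that forms the end of 18S ribosomal RNA, by -1.28 and -1.4.

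Of the 13 large subunit assembly genes 12 fell with C/EBPalpha and the same 12 with both. Bop1, Pes1 and Wdr12 form a complex of large subunit maturation. Bop1 had levels of 5.46 and 5.4 with empty vectors, 5.13 and 5.11 with IRF8, 3.67 and 3.69 with C/EBPalpha and 2.84 and 2.93 with both, and changed by -1.75 ± 0.035 with C/EBPalpha and -2.54 ± 0.035 with both. Wdr12 changed by -1.58 ± 0.052 and -2.32 ± 0.052. Pes1 had levels of 3.61 and 3.59 with empty vectors, 3.51 and 3.39 with IRF8, 3.18 and 2.95 with C/EBPalpha and 3.02 and 2.99 with both, so that the last 2 groups overlapped. Its changes of -0.54 ± 0.062 and -0.60 ± 0.062 were the smallest falls among the called members with C/EBPalpha and with both. The other probe of Pes1 gave -0.65 and -0.59.

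Noc3l, a partner of the NOC proteins in moving large subunit precursors, was the exception. Its levels were 1.19 and 1.12 with empty vectors, 1.07 and 1.09 with IRF8, 1.2 and 1.18 with C/EBPalpha and 1.93 and 1.84 with both. The arrays with both factors lay above all others, while those with C/EBPalpha overlapped the empty-vector ones. The change was 0.03 ± 0.048 with C/EBPalpha (95% interval -0.07 to 0.14, adjusted p = 0.526) and 0.73 ± 0.048 with both (1.66-fold higher, adjusted p = 1.92e-08). It rests on 1 probe, and with arrays scaled to their median the C/EBPalpha value became -0.27 and the rise with both was not called. In the same role Rrp1b, a nucleolar protein of large subunit processing, fell most with both, -3.22 ± 0.06 or 9.29-fold, against -1.72 ± 0.06 with C/EBPalpha. Nop2, a methyltransferase of 28S ribosomal RNA, fell most with C/EBPalpha, -2.01 ± 0.033, and reached -2.35 ± 0.033 with both. Ppan changed by -1.93 and -2.67, Rrs1 by -1.36 and -2.02, Nop16 by -1.47 and -1.85, Noc2l by -1.51 and -1.84, Wdr74 by -1.39 and -1.66, and Ebna1bp2 by -0.96 and -1.64. Nip7 changed by -1.24 and -1.37, but its other probe gave -0.92 and -0.27, the widest disagreement between probes of a member.

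For RNA polymerase I, Polr1a is the largest subunit and Polr1b the next largest. Polr1a had levels of 3.93 and 3.93 with empty vectors, 3.69 and 3.59 with IRF8, 2.37 and 2.48 with C/EBPalpha and 2.41 and 2.45 with both. The C/EBPalpha arrays and those with both factors overlapped, with changes of -1.5 ± 0.044 and -1.5 ± 0.044. Polr1b had levels of 2.41 and 2.37, 2.02 and 2.03, 0.34 and 0.42 and -0.59 and -0.57 in the same order, with no overlap. It changed by -2.01 ± 0.047 with C/EBPalpha (4.02-fold lower) and -2.96 ± 0.047 with both (7.8-fold lower, adjusted p = 4.11e-14). Polr1c, a subunit shared with RNA polymerase III, changed by -1.02 ± 0.029 and -0.73 ± 0.029. Ddx21, a helicase that couples polymerase I transcription to processing, changed by -2.17 ± 0.032 and -2.64 ± 0.032, and Mybbp1a, a nucleolar regulator of polymerase I, by -1.75 ± 0.035 and -2.16 ± 0.035. The 6 genes with an E box near their start changed by -1.75 (Mybbp1a), -2.01 (Nop2), -0.54 (Pes1), -1.9 (Tsr1), -1.85 (Utp20) and -1.6 (Wdr43) with C/EBPalpha, so they lay across the range of the 42.

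**Figure D2:**
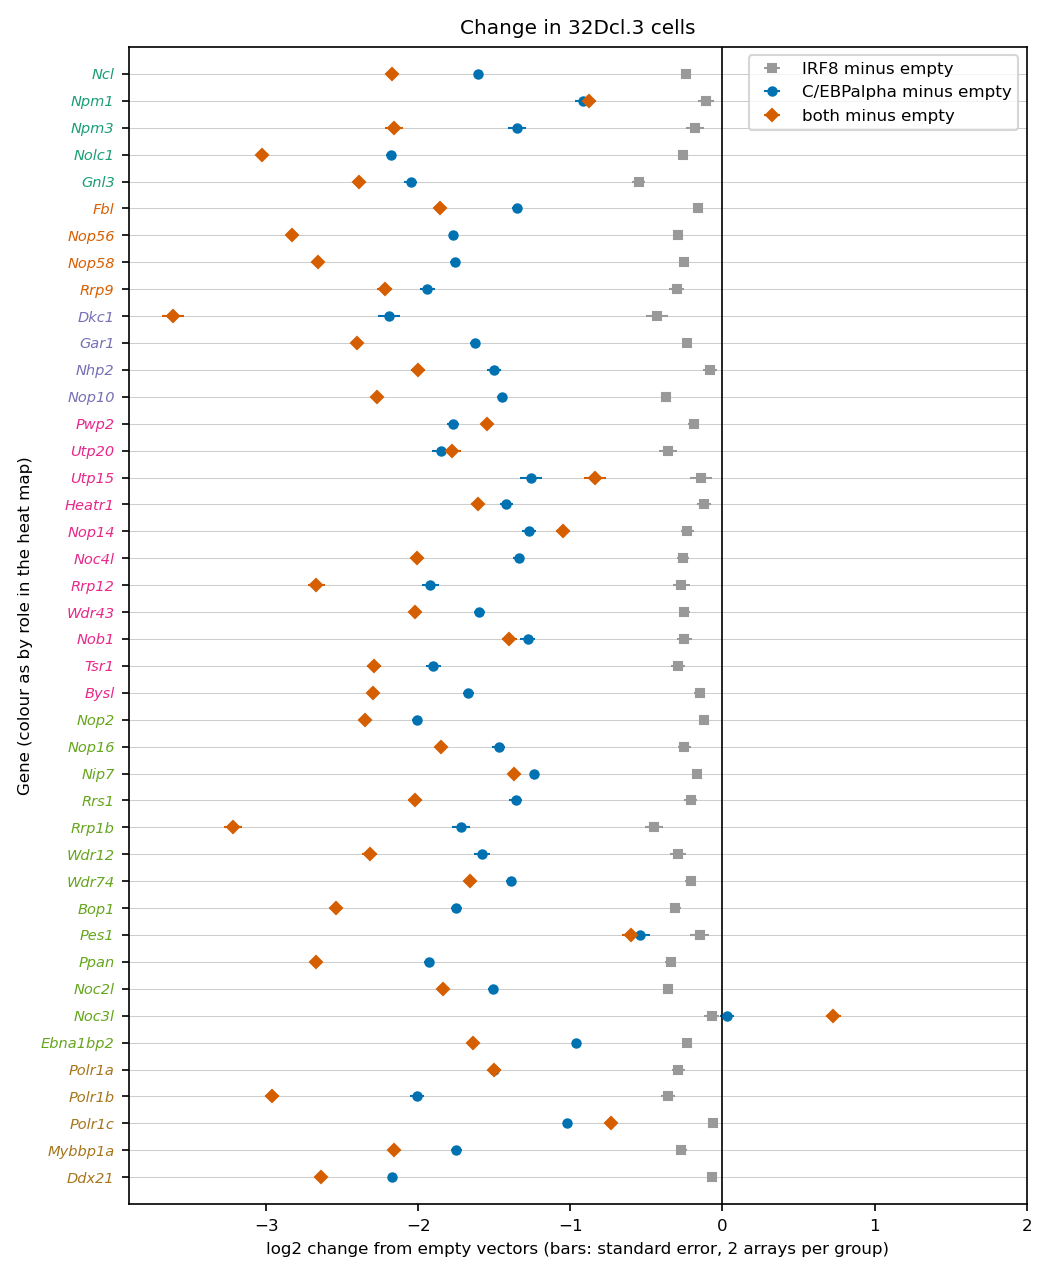
Log2 change of each of the 42 genes in 32Dcl.3 with IRF8 (squares), C/EBPalpha (circles) or both (diamonds) against empty vectors, with standard errors over 2 arrays per group. Nearly all points lie left of 0, from -0.55 to -0.06 with IRF8, and Noc3l with both factors lies at 0.73.

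With IRF8 alone the falls of the 35 genes called were at most 1.46-fold. The largest falls were those of Gnl3 (-0.55 ± 0.042, 1.46-fold, adjusted p = 6.93e-07), Rrp1b (-0.45 ± 0.06) and Dkc1 (-0.43 ± 0.072). In the other roles the largest were Rrp9 (-0.30 ± 0.049), Utp20 (-0.36 ± 0.059) and Polr1b (-0.36 ± 0.047). Both IRF8 arrays lay below both empty-vector arrays for 40 of 42 genes (41.8% of all genes), Npm1 and Nhp2 being those that overlapped. The 7 genes not called were Npm1 (-0.11 ± 0.052), Nhp2 (-0.08 ± 0.047), Utp15 (-0.14 ± 0.073), Pes1 (-0.15 ± 0.062), Noc3l (-0.07 ± 0.048), Polr1c (-0.06 ± 0.029) and Ddx21 (-0.07 ± 0.032). The other probe of Ddx21 gave -0.38, the widest disagreement between probes of a member in this comparison. Under each of the 5 other scalings 29 of the 35 falls were called.

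Whether IRF8 added to the effect of C/EBPalpha was read from the arrays with both factors against those with C/EBPalpha. Here 32 of the 42 genes were lower and 5 higher (37.9% and 34.4% of all genes), with a median of -0.45 against 0 for all genes. Lower by the most were Rrp1b (-1.49 ± 0.06, 2.82-fold), Dkc1 (-1.42 ± 0.072, 2.68-fold) and Nop56 (-1.06 ± 0.03, 2.08-fold), followed by Polr1b (-0.96 ± 0.047), Nolc1 (-0.85 ± 0.029) and Rrp12 (-0.75 ± 0.057). Higher were Noc3l (0.70 ± 0.048), Utp15 (0.42 ± 0.073), Polr1c (0.29 ± 0.029), Pwp2 (0.22 ± 0.038) and Nop14 (0.22 ± 0.045). Both arrays with both factors lay above both C/EBPalpha arrays for 5 of the 42 genes (42.0% of all genes) and below them for 33 (42.6%). Not called were Npm1 (0.04 ± 0.052), Utp20 (0.07 ± 0.059), Nob1 (-0.12 ± 0.049), Pes1 (-0.06 ± 0.062) and Polr1a (0.00 ± 0.044). Nip7 was among the lower genes at -0.13, but its other probe gave 0.65. The probes of Npm1 and of Pes1 also disagreed in sign here. With arrays scaled to their median the split was 37 lower and 1 higher, Noc3l being the higher gene, and Pwp2, Nop14 and Polr1c turned to values of -0.12, -0.13 and -0.06. Of the 37 calls 31 held under each of the 5 other scalings, 30 of them lower and 1 higher.

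The interaction term, the change with both factors minus the sum of the 2 single changes, was below 0 and called for 24 genes and above 0 for 8 (31.9% and 23.8% of all genes), with a median of -0.27 against -0.01 for all genes. The median was -0.66 with arrays scaled to their median, where that of all genes was -0.40, and -0.15 with the deposited series values, where it was -0.02. For these 24 the fall with both exceeded the sum of the single falls on the log2 scale. Its most negative values were those of Rrp1b (-1.04 ± 0.084, adjusted p = 7.46e-07), Dkc1 (-0.99 ± 0.1) and Nop56 (-0.76 ± 0.043), and in the other roles Npm3 (-0.63 ± 0.083), Rrp12 (-0.48 ± 0.081), Bysl (-0.48 ± 0.048) and Polr1b (-0.59 ± 0.067). Positive values were found for Noc3l (0.77 ± 0.068, adjusted p = 1.58e-06), Utp15 (0.56 ± 0.1), Nop14 (0.45 ± 0.063), Utp20 (0.43 ± 0.083), Pwp2 (0.42 ± 0.053), Polr1c (0.35 ± 0.041), Polr1a (0.29 ± 0.062) and Gnl3 (0.21 ± 0.06). These included 4 of the 11 small subunit genes and 2 of the 5 of RNA polymerase I. The split turned on the scaling, with 34 negative and 1 positive call when arrays were scaled to their median, Noc3l remaining positive. Of the 32 calls 21 held under each of the 5 other scalings, 20 of them negative and 1, Noc3l, positive. The negative calls of Rrp12, Wdr43, Nop2 and Mybbp1a did not hold. The 10 genes not called were Npm1 (0.15), Rrp9 (0.02), Heatr1 (-0.06), Nob1 (0.14), Tsr1 (-0.11), Nop16 (-0.13), Nip7 (0.04), Wdr74 (-0.06), Pes1 (0.09) and Noc2l (0.03). The value of Nip7 rests on its brighter probe. Its other probe gave 0.65 with both against C/EBPalpha and -0.16 with IRF8 against empty vectors, which makes a positive interaction.

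The effect of C/EBPalpha could also be read where IRF8 was present in both groups. This shares no array with the comparison of C/EBPalpha against empty vectors, but the standard errors of both come from the same fit. With both factors against IRF8, 41 genes were lower and 1, Noc3l, higher (46.1% and 36.1% of all genes), with a median of -1.87, and the arrays with both lay below those with IRF8 for 41 (49.6% of all genes). All 42 genes had the sign they had without IRF8, as did 84.3% of all genes, and 41 were called lower in each comparison, against 39.6% of all. For 28 of the 42 the change was more negative with IRF8 present, and the share of all genes was not counted. This is the sign of the interaction term above, with a median of -0.27 against -0.01 for all genes, and it turned on the scaling. Dkc1 again fell most, -3.18 ± 0.072 or 9.06-fold.

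**Figure D3:**
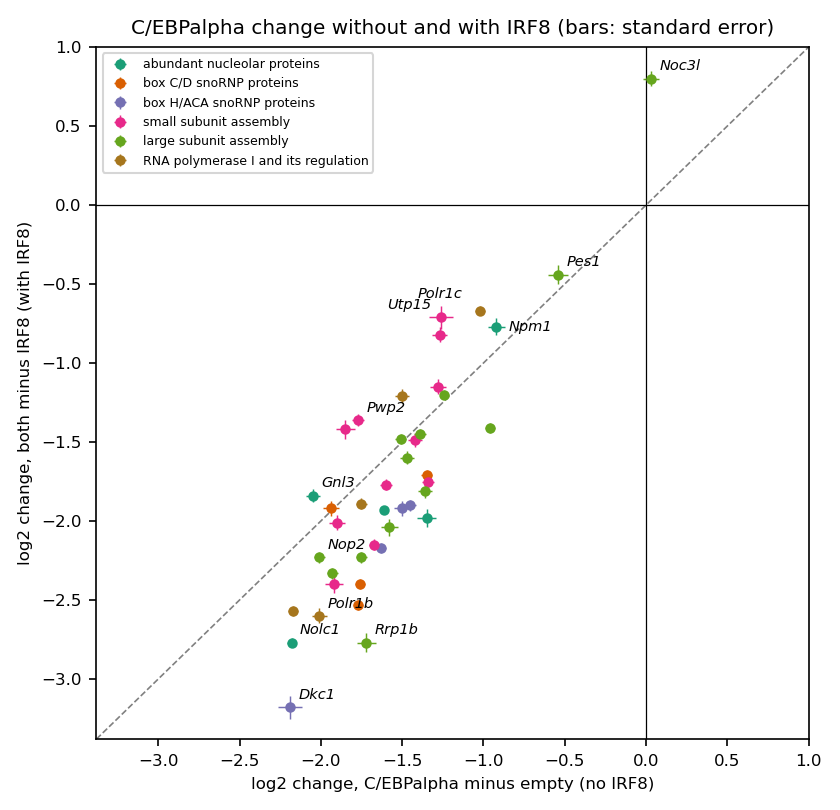
Log2 change with C/EBPalpha in the absence of IRF8 (horizontal) and in its presence (vertical) for the 42 genes, coloured by role, with standard errors and a dashed line of equal change. Dkc1 and Rrp1b are among the points below the line, while Utp15, Pwp2, Polr1c and Noc3l lie above it.

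In progenitors lacking IRF8 the same genes were lower than in WT, by smaller amounts. In MDPs 35 of 42 fell and 1, Pes1, rose (28.6% and 22.8% of all genes), with a median of -0.37 or 1.29-fold, against -0.02 for all genes. In cMoPs 38 fell and 1, Ebna1bp2, rose (31.1% and 22.9% of all genes), with a median of -0.37 against -0.03. Both Irf8KO arrays lay below both WT arrays for 36 genes in MDPs (38.7% of all genes) and for 39 in cMoPs (44.6%). The 2 cell types share no array, and 41 of 42 genes had the same sign in them (74.3% of all genes), with 35 called lower in each (19.8% of all). The standard errors in both come from the same fit, so the calls are not fully independent. No member was at least 2-fold lower in either, as were only 3.03% of all genes in MDPs and 3.78% in cMoPs. With arrays scaled to their median the median of all genes was -0.34 in cMoPs and all 42 genes were called lower there. Set beside 32Dcl.3, the genes were thus lower both without Irf8 in progenitors and with added IRF8 in the cell line.

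**Figure D4:**
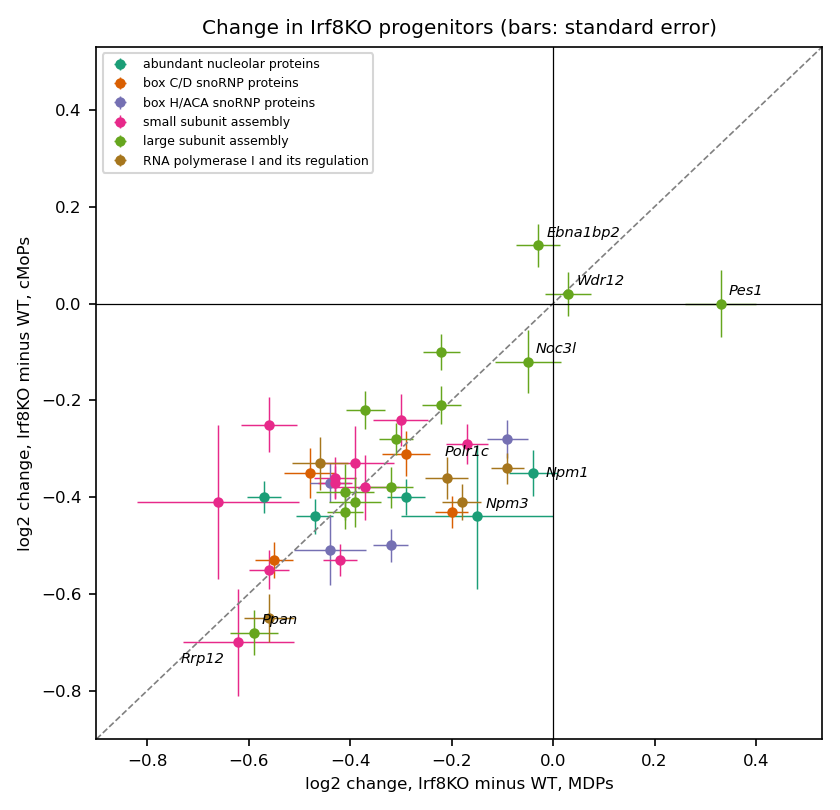
Log2 change between Irf8KO and WT in MDPs (horizontal) and in cMoPs (vertical) for the 42 genes, coloured by role, with standard errors and a dashed line of equal change. Most points lie between -0.7 and -0.1 on both axes, and Pes1, Ebna1bp2, Wdr12 and Noc3l lie apart from them.

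Ncl had levels of 7.95 and 7.96 in WT and 7.68 and 7.65 in Irf8KO MDPs, and of 6.94 and 6.97 and 6.52 and 6.58 in cMoPs. The genotypes did not overlap in either, with changes of -0.29 ± 0.037 (adjusted p = 9.76e-05) and -0.40 ± 0.037 (adjusted p = 6.04e-06). Npm1 overlapped between genotypes in MDPs, with 8.61 and 8.47 in WT and 8.51 and 8.48 in Irf8KO (-0.04 ± 0.047, adjusted p = 0.468), but not in cMoPs, with 7.54 and 7.56 and 7.19 and 7.2 (-0.35 ± 0.047, adjusted p = 0.000108). Of its 4 probes 1 was above 0 in MDPs, at 0.03. Nolc1 had the largest fall of the nucleolar proteins in MDPs, -0.57 ± 0.033, and Gnl3 fell by 0.47 there and by 0.44 in cMoPs. Npm3 changed by -0.15 ± 0.15 in MDPs, where its WT arrays lay apart at -0.54 and -1.09, and by -0.44 ± 0.15 in cMoPs.

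Fibrillarin had levels of 6.07 and 6.1 in WT and 5.52 and 5.55 in Irf8KO MDPs, and 5.76 and 5.83 and 5.29 and 5.24 in cMoPs. Its falls of -0.55 ± 0.037 and -0.53 ± 0.037 were the largest of the box C/D proteins in each cell type. Nop56 changed by -0.20 ± 0.033 and -0.43 ± 0.033, Nop58 by -0.29 ± 0.047 and -0.31 ± 0.047, and Rrp9 by -0.48 and -0.35. Among the box H/ACA proteins, Dkc1 changed by -0.44 ± 0.071 (from 2.1 and 2.04 to 1.66 and 1.59) in MDPs and by -0.51 ± 0.071 (from 2.28 and 2.19 to 1.83 and 1.63) in cMoPs. Nop10 was not called in MDPs (-0.09 ± 0.04, adjusted p = 0.0892) and was in cMoPs (-0.28 ± 0.04). Gar1 and Nhp2 changed by -0.44 and -0.32 in MDPs and by -0.37 and -0.50 in cMoPs.

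All 11 small subunit genes fell in both cell types. Rrp12 changed by -0.62 ± 0.11 in MDPs and by -0.70 ± 0.11 in cMoPs, and Utp15 by -0.66 ± 0.16 and -0.41 ± 0.16 (adjusted p = 0.0492 in cMoPs). Their standard errors were the largest of the role, and their WT MDP arrays lay apart, at 0.54 and 0.92 for Rrp12 and -1.12 and -0.70 for Utp15. Heatr1 changed by -0.17 ± 0.042 and -0.29 ± 0.042, Bysl by -0.43 ± 0.034 and -0.37 ± 0.034, and Noc4l by -0.56 and -0.55. The other 6 small subunit genes changed by -0.56 (Nop14) to -0.30 (Wdr43) in MDPs and by -0.53 (Pwp2) to -0.24 (Wdr43) in cMoPs, and all were called. The smallest fall in MDPs was that of Heatr1, which with those of Utp15 and Polr1c was not called under every scaling, and in cMoPs those of Wdr43 (-0.24) and Nop14 (-0.25).

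The large subunit genes held the exceptions. Ppan, a factor of early large subunit assembly, fell most in both cell types, from 5.98 and 5.84 to 5.32 and 5.31 in MDPs (-0.59 ± 0.047) and from 5.21 and 5.14 to 4.51 and 4.5 in cMoPs (-0.68 ± 0.047, 1.6-fold). Bop1 changed by -0.41 ± 0.035 and -0.43 ± 0.035, with no overlap of genotypes. Its partner Wdr12 did not pass the test in either, with 0.03 ± 0.045 (95% interval -0.07 to 0.13) and 0.02 ± 0.045 (95% interval -0.08 to 0.12). Pes1 was at 3.65 and 3.4 in WT and 3.81 and 3.91 in Irf8KO MDPs (0.33 ± 0.07, adjusted p = 0.00266), and at 2.33 and 2.38 and 2.37 and 2.34 in cMoPs (95% interval of the change -0.15 to 0.16). The rise in MDPs rests on the brighter of its probes, since the other gave -0.46 and their mean -0.07. In cMoPs the other probe gave -0.26 and their mean -0.13. Ebna1bp2 was at 5.72 and 5.74 in WT and 5.79 and 5.9 in Irf8KO cMoPs (0.12 ± 0.044, adjusted p = 0.0457), a call lost without any of 5 of the arrays and turned to -0.20 with arrays scaled to their median. Rrp1b, Nop2, Nop16, Noc2l, Wdr74, Nip7 and Rrs1 were called lower in both cell types, from -0.41 (Rrp1b) to -0.22 (Rrs1) in MDPs and from -0.41 (Nop2) to -0.10 (Rrs1) in cMoPs. In cMoPs the calls of Rrs1 and of the small subunit gene Utp15 did not hold under every scaling, and those of Rrs1, Utp15 and Npm3 were each lost without at least 1 of the arrays. The other probe of Nip7 gave 0.06 in MDPs and -0.02 in cMoPs. Noc3l was not called in MDPs (-0.05 ± 0.065) or cMoPs (-0.12 ± 0.065), and Ebna1bp2 was not called in MDPs (-0.03 ± 0.044).

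All 5 genes of RNA polymerase I and its regulation fell in both cell types. Ddx21 fell most, by 0.56 ± 0.049 in MDPs and 0.65 ± 0.049 in cMoPs on the log2 scale, from 3.23 and 3.32 to 2.61 and 2.64 in the latter. Polr1a changed by -0.18 ± 0.038 and -0.41 ± 0.038, Polr1b by -0.46 ± 0.055 and -0.33 ± 0.055, Mybbp1a by -0.21 ± 0.043 and -0.36 ± 0.043, and Polr1c by -0.09 ± 0.032 (adjusted p = 0.0455) and -0.34 ± 0.032.

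The effect of Irf8KO was also compared between MDPs and cMoPs, and the share of the 42 genes called was near that of all genes. The difference was called below 0 for 7 and above 0 for 2 (13.3% and 11.6% of all genes), with a median of -0.02, and 33 were not called. More negative in cMoPs were Pes1 (-0.33 ± 0.099, adjusted p = 0.035), Npm1 (-0.31 ± 0.067, adjusted p = 0.00768), Polr1c (-0.25 ± 0.045), Polr1a (-0.23 ± 0.054), Nop56 (-0.23 ± 0.047), Nop10 (-0.19 ± 0.056) and Nhp2 (-0.18 ± 0.048). Less negative there were Nop14 (0.31 ± 0.079) and Nolc1 (0.17 ± 0.046). The value of Pes1 rests on its brighter probe. The other probe went the opposite way, with -0.46 in MDPs and -0.26 in cMoPs. The 2 cell types lay on different slides, and Xist was well above background on all MDP arrays and on no cMoP array while Ddx3y was the reverse, so stage, slide and the animals' sex cannot be told apart here. Of these 9 calls 3 held under each of the 5 other scalings.

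**Figure D5:**
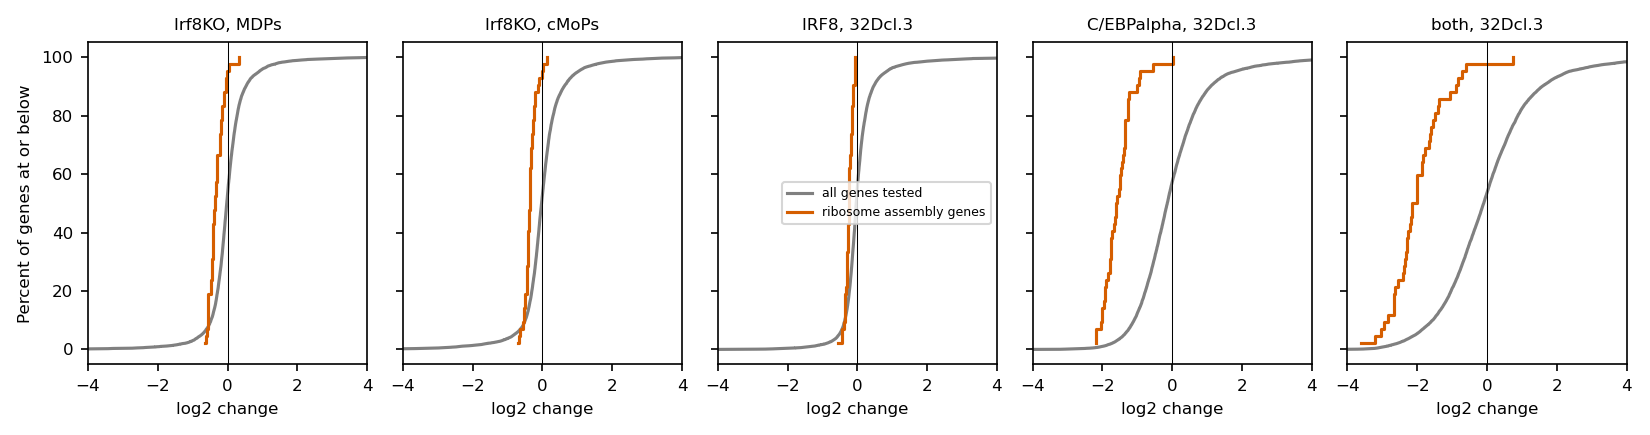
Cumulative share of genes (percent) by log2 change in 5 comparisons, for the 42 ribosome assembly genes (orange) and all genes tested (grey). The orange curve lies left of the grey one in each panel, with medians of -0.37, -0.37, -0.25, -1.59 and -2.09 from left to right.

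Other genes of ribosome production, from lists drawn up beside the 42, moved in the same direction in 32Dcl.3 cells with C/EBPalpha. There 47.2% of all genes fell and 31.6% rose. Of 46 other small subunit genes 44 fell with C/EBPalpha and 2 rose (median -1.08), led by Utp18 (-2.64 ± 0.31) and Nat10 (-2.0 ± 0.055). Of 43 other large subunit genes 42 fell and 0 rose (median -1.25), with Mdn1 at -1.87 ± 0.059 and Nle1 at -1.86 ± 0.047. In addition 11 of 12 other RNA polymerase I genes fell (median -0.68), among them the initiation factor Rrn3 (-1.16 ± 0.041), as did 11 of 13 genes of snoRNP assembly and export (median -1.05), with Tcof1 (treacle) at -1.93 ± 0.048 and Ruvbl1 at -1.72 ± 0.026. RNA exosome genes, which trim ribosomal RNA precursors, fell in 12 of 13 cases (median -0.98), with the nuclease Dis3 at -2.09 ± 0.037. Of 21 RNA polymerase III genes 19 fell (median -0.72), with Polr3d at -1.71 ± 0.068. The mostly negative interaction of the 42 genes (median -0.27) was not shared by all lists. An interaction was called above 0 for 23.8% of all genes and below 0 for 31.9%. It was above 0 for 11 and below 0 for 10 of 46 other small subunit genes (median 0.03). For other large subunit genes these were 14 and 9 (median 0.03), for RNA polymerase I 3 and 3, and for RNA polymerase III 3 and 4. Genes of snoRNP assembly and export had 1 and 7 (median -0.28), and exosome genes 1 and 9 (median -0.29). In Irf8KO these lists had medians of -0.21 to -0.11 in MDPs and -0.29 to -0.19 in cMoPs. In MDPs 26 of 45 other small subunit genes fell and 2 rose, 30 of 43 other large subunit genes fell, 7 of 13 snoRNP assembly and export genes fell and 1 rose, and 10 of 13 exosome genes fell. RNA polymerase I, with 4 of 12 fallen and 2 risen, and RNA polymerase III, with 6 of 21 and 3, were near the 28.6% of all genes that fell. In cMoPs, where 31.1% of all genes fell, the genes that fell numbered 27, 31, 8 and 11 in the first 4 of these lists, and again 4 of 12 for RNA polymerase I and 11 of 21 for RNA polymerase III. Those that rose numbered 1, 1, 0 and 1 in the first 4 lists and 2 in each of the polymerase lists, against 22.9% of all genes. The largest called changes were those of Tcof1 and Ftsj3, with Tcof1 at -0.77 ± 0.052 and -0.91 ± 0.052 and Ftsj3 at -0.87 ± 0.072 and -0.81 ± 0.072.

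The proteins of the finished ribosome did not share this pattern. Of 80 cytosolic ribosomal protein genes tested, 31 fell and 35 rose with C/EBPalpha (median 0.01), against 47.2% and 31.6% of all genes. With both, 31 fell and 38 rose (median 0.02), against 46.8% and 38.0%. The largest rise was that of Rpl3l, a muscle form of a large subunit protein, at 2.55 ± 0.1 with C/EBPalpha. In Irf8KO 52 rose and 1 fell in MDPs (median 0.18), against 22.8% and 28.6% of all genes. In cMoPs 33 rose and 3 fell (median 0.13), against 22.9% and 31.1%. The gene that fell in MDPs was Rps4l (-0.93 ± 0.05). Ribosomal protein genes have many near-identical pseudogenes, so their probes may read more than 1 transcript. No test of the difference between the lists was made.

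Myc, the gene for MYC, had levels of 4.2 and 4.12 with empty vectors, 3.62 and 3.75 with IRF8, 2.79 and 2.83 with C/EBPalpha and 0.72 and 0.72 with both. It changed by -0.48 ± 0.046 with IRF8, by -1.35 ± 0.046 with C/EBPalpha and by -3.44 ± 0.046 with both (adjusted p = 1.08e-14). Mycn changed by -3.19 ± 0.091 with C/EBPalpha and -7.51 ± 0.091 with both, and Mxd1, a MYC antagonist, by 3.91 ± 0.052 and 3.79 ± 0.052. In progenitors Myc moved the other way from the 42 genes. Its levels were 4.24 and 4.24 in WT and 4.63 and 4.57 in Irf8KO MDPs, and 3.6 and 3.59 against 3.95 and 4.0 in cMoPs. These are rises of 0.36 ± 0.036 (adjusted p = 1.95e-05) and 0.38 ± 0.036 (adjusted p = 8.54e-06). Mxd1 rose by 0.61 ± 0.065 in MDPs and 0.87 ± 0.065 in cMoPs, and Mxd4 by 0.90 ± 0.085 and 0.93 ± 0.085.

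Cell cycle genes and markers of other cells moved with these comparisons. Of all genes, 47.2% fell and 31.6% rose with C/EBPalpha, and 46.8% fell and 38.0% rose with both. In Irf8KO, 28.6% fell and 22.8% rose in MDPs, and 31.1% fell and 22.9% rose in cMoPs. No list below was tested against these shares. Of 32 cell cycle genes 30 fell with C/EBPalpha (median -0.90), among them Rrm2 of nucleotide synthesis (-1.39 ± 0.039). With both 31 fell (median -2.35), among them cyclin A2 (Ccna2, -3.13 ± 0.031). Of 31 tested in progenitors 19 fell and 4 rose in Irf8KO MDPs (median -0.18). In cMoPs 25 fell and 2 rose (median -0.32), with cyclin D1 (Ccnd1) at -2.96 ± 0.061. The summed level of 10 neutrophil markers, in multiples of the 75th percentile, was 69.5 and 71 with empty vectors, 43.9 and 44.4 with IRF8, 3230 and 3270 with C/EBPalpha and 1800 and 1800 with both. Of these markers 7 were well above background with empty vectors and 9 with C/EBPalpha. In progenitors it was 9.81 to 11.8 in WT and 97.3 to 99.7 in Irf8KO MDPs, and 36.7 to 36.9 against 582 to 604 in cMoPs. The markers did not move as 1 in MDPs, where 4 of 8 tested rose and 3 fell (median 0.34). There S100a8 rose by 3.78 ± 0.056 and Mmp8 by 5.15 ± 0.12, while S100a9 changed by -1.38 ± 0.083 and Camp was not well above background in Irf8KO. In cMoPs all 8 tested rose (median 3.32). In MDPs 5 of the 10 were well above background, and Ltf, Ngp, Mmp9 and Retnlg were not well above background on any MDP array. The summed level of erythroid markers was lower in Irf8KO MDPs, at 4.89 to 5.23 against 20.2 to 20.6. That of basophil, mast cell and eosinophil markers was 3.64 to 3.9 against 16.5 to 16.9. Of 5 erythroid markers tested in MDPs 4 fell and 1 rose, and all 6 basophil, mast cell and eosinophil markers tested fell. In cMoPs 3 of 5 erythroid markers tested fell and 1 rose, and of 6 basophil, mast cell and eosinophil markers 3 fell and 2 rose. Lymphoid markers were higher in Irf8KO MDPs, with 3 of 3 B cell markers (Vpreb1, 3.14 ± 0.086) and 3 of 4 T and NK cell markers (Il7r, 4.91 ± 0.4) that rose. In cMoPs 2 of 3 B cell markers rose and 1 fell, and 1 of 4 T and NK cell markers rose. With C/EBPalpha in 32Dcl.3, 4 of 6 erythroid markers fell and 1 rose, 2 of 6 basophil, mast cell and eosinophil markers fell and 3 rose, and 3 of 4 B cell and 2 of 3 T and NK cell markers rose. With both, 4 of 6 erythroid markers fell and 1 rose, and 5 of 6 basophil, mast cell and eosinophil markers fell. Of the genes that define MDPs and cMoPs, 8 or 9 of 9 with a probe were detected on progenitor arrays, while Kit and Cx3cr1 were not well above background on any 32Dcl.3 array. Their levels differed by genotype. In Irf8KO MDPs 5 of 8 tested rose and 3 fell, with Cd34 at -0.93 ± 0.034 and Cx3cr1 at 0.92 ± 0.052. In cMoPs 3 rose and 4 fell, with Cd34 at -2.7 ± 0.034 and Cx3cr1 at -1.95 ± 0.052. The part of these cell type and cell cycle differences in the changes of the 42 genes was not tested.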

How the data were processed

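Total RNA of 16 samples was hybridised to single-colour Agilent arrays. The deposited scanner files hold, per the file headers, processed signal intensity from Feature Extraction 10.7.3.1, and deposited flags (other values) for background and outliers. The authors' deposited series values, on a log2 scale, served as an alternative. Here spots of a probe were averaged without outlier spots, and log2 intensity minus the log2 75th percentile of the array was taken. Probes not flagged as well above background on both arrays of any group were dropped, separately for progenitors and 32Dcl.3, and the brightest kept probe stood for a gene. Symbols came from matching transcript accessions to RefSeq (GRCm38.p6): 26762 probes matched 1 symbol and 28919 none. Group means of 8 arrays per system were fitted with limma 3.58.1 (lmFit, eBayes with trend) in R 4.3.3, with Benjamini-Hochberg adjustment. The script was tested on simulated data.

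Named genes are all 42 members, by role, with fuller values for 12 members and Myc in every comparison, for the largest called change of each role and for members not called, and up to 2 called genes with the largest change in other lists. The members and lists were chosen with earlier results of these data known. The series describes the experiments as independent. Same-numbered arrays of 2 groups had residuals that correlated at -0.0649 to 0.0712, so the numbers were not taken to pair samples. Precision is limited by 2 arrays per group, and 0 spots were flagged as saturated. Other scalings, background correction (normexp on median signals), filters, probe rules, an experiment block and leaving out each array were tried.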

Additional observations from a re-analysis of the deposited data

Results flagged for a closer look

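The effect of Irf8KO differed between cMoPs and MDPs by a test of the difference itself for 9 of the 42 genes, 7 lower and 2 higher, against 13.3% and 11.6% of all genes. The share called was thus near that of all genes. Of these 9 calls 3 held under each of 5 other scalings, those of Npm1, Nop56 and Polr1c. The difference (cMoPs minus MDPs, log2) was -0.33 for Pes1, -0.31 for Npm1, -0.25 for Polr1c, -0.23 for Polr1a, -0.23 for Nop56, -0.19 for Nop10 and -0.18 for Nhp2, and it was 0.31 for Nop14 and 0.17 for Nolc1. The cell types lay on different slides and differed in Xist and Ddx3y, so stage, slide and the animals' sex cannot be told apart. For Pes1 the difference rests on 1 of its probes. The other probe went the opposite way, with -0.46 in MDPs and -0.26 in cMoPs.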

How the results depend on the processing

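Over all alternative settings 306 counts of calls stayed within 1.5 times the main count and 32 moved further. Single genes kept their call status in 6849 cases, gained a call in 84 and lost one in 139. In 26 the value changed sign in a gene called in at least 1 of the fits. Sign changes of genes called in neither fit are counted among the 6849. Of the medians of the 42 genes 134 moved by less than the spread between arrays and 35 by more. Those that moved by over 1.5 times with arrays scaled to their median became -0.69 in cMoPs, -0.24 for the stage difference, -0.80 with both against C/EBPalpha and -0.66 for the interaction, and the last was -0.15 with the deposited series values. The cause of each change was not tested.

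With arrays scaled to their median, the genes called higher numbered 0 in cMoPs, 0 with both factors against empty vectors, 0 with both against IRF8, 1 with both against C/EBPalpha and 1 for the interaction, and the stage difference had 0 higher and 15 lower. Values that turned were Wdr12 (-0.29), Pes1 (-0.31) and Ebna1bp2 (-0.20) in cMoPs, Nolc1 (-0.05) for the stage difference and Noc3l (-0.27) with C/EBPalpha. With both against C/EBPalpha they were Npm1 (-0.31), Pwp2 (-0.12), Utp20 (-0.28), Nop14 (-0.13), Polr1a (-0.34) and Polr1c (-0.06). For the interaction they were Npm1 (-0.24), Gnl3 (-0.18), Rrp9 (-0.37), Nob1 (-0.25), Nip7 (-0.34), Pes1 (-0.29), Noc2l (-0.36), Polr1a (-0.10) and Polr1c (-0.04). With the 75th percentile over detected probes, 4 were higher for the stage difference and 1 with C/EBPalpha, as was 1 with quantile normalization. With normexp, 0 were higher in cMoPs, 4 lower for the stage difference, and Npm1 and Polr1a were at -0.15 with both against C/EBPalpha. With the deposited series values Wdr43 had an interaction of 0.02. With the mean of a gene's probes 0 were higher in MDPs and in cMoPs and 1 for the stage difference, and Pes1 was at -0.07 and -0.13 in MDPs and cMoPs and Nip7 at 0.26 with both against C/EBPalpha. Without an intensity trend 0 were higher in cMoPs, and 1 higher and 4 lower for the stage difference. Without the filter on dim probes 0 were higher in cMoPs.

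Leaving out each array in turn, with a lone array assumed to vary like the other groups, gave 33 to 37 lower and 1 higher in MDPs, 35 to 38 lower and 0 to 1 higher in cMoPs, and 3 to 9 lower and 0 to 4 higher for the stage difference. It gave 41 lower and 0 higher with C/EBPalpha, 34 to 36 lower with IRF8, 41 lower and 1 higher with both, 32 to 33 lower and 5 higher with both against C/EBPalpha, and 23 to 25 lower and 8 to 10 higher for the interaction. With experiment number as a replicate block, 34 genes were lower in MDPs and 37 in cMoPs, and the other counts of calls were the same. The stage difference and the interaction had no value in fits of only the 2 groups compared. With 2 arrays per group, changes near the standard errors could not be resolved.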
